A study of Mus musculus with 5 samples.

Results

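The Adam, Adamts and Adamtsl genes were followed across the cell classes of the mouse testis. They were taken as all gene symbols that begin with Adam, Adamts or Adamtsl followed by a digit, which gave 57 of the 27998 features counted, namely 33 Adam, 19 Adamts and 5 Adamtsl genes. Droplet-based single-cell RNA sequencing had been done on synchronized whole testes of mice at 0, 144, 350.4, 556.8 and 763.2 h. Per the series' design text, each time catches the seminiferous epithelium cycle at stages VIII-IX once more, and the title names Sertoli cell maturation as the question. Each time had 1 library. The labels call the 0 h library the control and the later ones EP1, EP2, EP3 and EP4. The times are those of the sample titles, and the labels give, in the text used here, neither the agent of synchronization nor the strain, age or number of animals. With 1 library per time no difference has a replicate check and no test was made. Intervals are exact 95% intervals that cover counting error only, and the differences describe these libraries.

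ADAM proteins are membrane-anchored and join a metalloprotease domain to a disintegrin domain. Some of them cut other membrane proteins free from the cell surface, as Adam10 and Adam17 do with Notch receptors and growth factor precursors. A large group in the mouse is made in male germ cells, and several of its members lie on the sperm surface. Adam2 and Adam1 proteins form the fertilin complexes, and Adam3 is needed by mouse sperm to pass into the oviduct and bind the egg coat. ADAMTS proteins are secreted, carry thrombospondin repeats and cut matrix proteins. Adamts1, Adamts4, Adamts5, Adamts9, Adamts15 and Adamts20 cut proteoglycans such as versican and aggrecan, while Adamts2, Adamts3 and Adamts14 trim procollagens. ADAMTS-like proteins keep the repeats but have no protease domain.

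The libraries at 0, 144, 350.4, 556.8 and 763.2 h kept 7733, 6385, 4679, 8405 and 11038 cells, and these held 73770720, 98242985, 80706875, 109224731 and 110446898 UMIs. Cells were clustered without the 57 genes, so that their levels played no part in the grouping, and clusters took a class name from marker genes. The suffix -like marks such a name. Levels are given as CPM, the UMIs of a gene in a class and library, scaled to 1000000 UMIs of all genes there. They are not divided by transcript length, so levels of different genes are not ranked against each other. A gene counts as 2-fold higher or lower where the ratio of CPM is at least 2 and both sums together hold at least 20 UMIs, and the share of all features past the same limit stands beside each first count as the background. Between 11 and 37 barcodes were shared by each pair of libraries. RNA from broken cells enters other droplets, so the level in cells that should lack a gene is given beside low values.

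The germline set comprised 20 Adam genes. By highest level over all classes and libraries, the 20 fell into 7 with it in pachytene or later spermatocytes and 13 with it in round spermatids. The first 7 were Adam2, Adam3, Adam5, Adam18, Adam32, Adam1b and Adam30. The other 13 were Adam1a, Adam4, Adam6a, Adam6b, Adam20, Adam21, Adam24, Adam25, Adam26a, Adam26b, Adam29, Adam34 and Adam39. Of these, Adam4, Adam6a and Adam6b had 44.3, 73.6 and 45.4 CPM in elongating spermatids at 556.8 h. Those levels were above the ones in round spermatids at 556.8 h and at 763.2 h (31.7, 45.1 and 29.6 CPM). The place of Adam4, Adam6a and Adam6b among the 13 thus rests on the 140 round-spermatid-like cells at 350.4 h. Few of those cells carried most of the class UMIs, as given below. Gene structure ran along with this division: all 13 spermatid genes have 1 coding exon in the GENCODE M21 annotation (GRCm38), whereas 5 of the 7 spermatocyte genes have 19 to 22. The exceptions among the 7 were Adam1b and Adam30, which have 1 coding exon. The remaining 37 members of the family have 8 to 39 coding exons.

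Position was set beside the stage. On chromosome 8 Adam18, Adam3, Adam5 and Adam32 stand in a row on the minus strand between 24602246 and 24948804, with gaps of 2.5, 1.2 and 11.8 kb. All 4 had their highest class level over the libraries in spermatocytes. At 556.8 h, however, Adam3 had 562 CPM in round spermatids and 537 CPM in pachytene-or-later cells, so its peak class depends on the library. The next gene, Adam9, starts 0.8 kb beyond Adam32 on the same strand and was read in somatic cells, with 113 CPM in macrophage-like cells at 144 h and 0.42 CPM in round-spermatid-like cells at 556.8 h. Farther along chromosome 8 stand Adam24, Adam25, Adam20 and Adam39 between 40675077 and 40827037 and Adam26b, Adam26a and Adam34 between 43519762 and 43710049, and these 7 genes peaked in round spermatids. Of 11 neighbouring pairs of germline genes within 500 kb, 10 shared their peak class. The exception was Adam1b and Adam1a on chromosome 5, which lie 15.1 kb apart and peaked in spermatocytes and in round spermatids. For Adam4 and Adam21 the shared class depends on the library, since Adam4 was highest in elongating spermatids at 556.8 h. The pairs overlap in runs such as Adam18, Adam3, Adam5 and Adam32, so they are not 11 independent observations. The share among germline genes that are not neighbours was not computed. The 3′ end of Adam1a shares 90.5% of its 50-base words with another annotated transcript, and that of Adam34 shares 29.1%, so their counts are uncertain. Adam6a and Adam6b share 11.4% with each other.

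Promoters are shown since the germline members with a promoter on record and the others differ in base composition there. RefSeq promoters of GRCm38.p6, from 250 bases before to 50 bases after a gene's start, were given for 10 germline and 21 other members. The 10 were Adam1a, Adam1b, Adam6a, Adam6b, Adam20, Adam21, Adam25, Adam26b, Adam29 and Adam34. Of the 7 spermatocyte genes only Adam1b was among them, so the values do not cover the germline genes with several coding exons. Germline promoters held a median of 39.5% G and C, with a range of 35.3 to 51.0%, against 66.3% for the 23 promoters of the other members and 52.7% over all 32851 promoters. The median number of CpG dinucleotides was 1 in germline promoters, 24 in those of the other members and 7 over all. Adam1b and Adam1a are shown as the neighbouring pair with different peaks, and Adam10 as a gene read in nearly all somatic classes. Each runs 5′ to 3′ on the gene's strand in lower case, with CpG dinucleotides in capitals. Adam1b lies at chr5:121503386-121503685 (minus), Adam1a at chr5:121521646-121521945 (minus) and Adam10 at chr9:70678732-70679031 (plus).
Adam1b: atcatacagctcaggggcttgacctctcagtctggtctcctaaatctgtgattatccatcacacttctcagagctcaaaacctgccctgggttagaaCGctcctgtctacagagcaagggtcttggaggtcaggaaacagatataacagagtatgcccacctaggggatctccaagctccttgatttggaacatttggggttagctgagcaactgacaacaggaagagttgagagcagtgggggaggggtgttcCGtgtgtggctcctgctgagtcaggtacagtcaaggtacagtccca
Adam1a: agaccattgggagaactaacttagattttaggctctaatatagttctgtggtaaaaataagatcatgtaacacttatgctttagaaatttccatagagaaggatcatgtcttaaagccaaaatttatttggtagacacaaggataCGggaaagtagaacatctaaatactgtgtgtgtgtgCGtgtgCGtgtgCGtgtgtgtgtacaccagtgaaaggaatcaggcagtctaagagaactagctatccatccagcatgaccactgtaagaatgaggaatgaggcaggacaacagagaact
Adam10: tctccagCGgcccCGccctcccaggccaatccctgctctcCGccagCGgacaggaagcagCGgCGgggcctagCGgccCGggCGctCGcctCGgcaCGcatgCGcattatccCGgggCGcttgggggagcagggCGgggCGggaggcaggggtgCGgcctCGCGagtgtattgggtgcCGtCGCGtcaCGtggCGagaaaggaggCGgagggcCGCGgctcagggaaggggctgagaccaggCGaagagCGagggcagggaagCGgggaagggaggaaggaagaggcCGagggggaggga
The Adam1b promoter holds 2 CpG dinucleotides, the Adam1a promoter 4 and the Adam10 promoter 32. The GC box GGGCGG, read on both strands, was in 0 of 10 germline promoters and in those of 17 of the 21 other members, and 35.7% of all promoters hold it. TATAAA was in 3 of the 10 germline promoters, those of Adam29, Adam6a and Adam6b, and in 2 of the 21 others, against 13.6% of all promoters. TGACGTCA, the full cAMP response element, was in neither group, and 1.79% of all promoters hold it. These matches describe letters in the window and not bound sites.

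**Figure D1:**
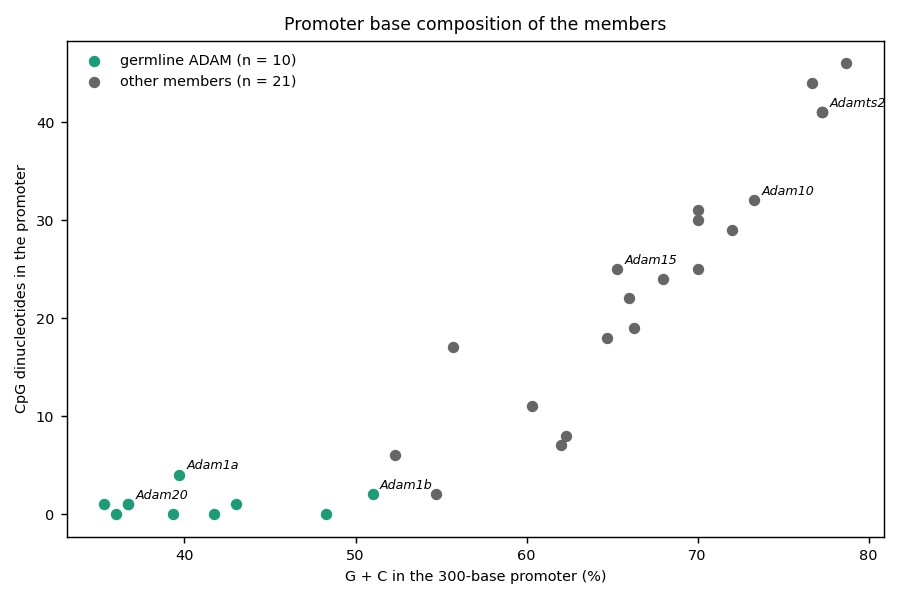
Percentage of G and C (x axis) against the number of CpG dinucleotides (y axis) in the 300-base RefSeq promoter of 10 germline Adam genes (green) and 21 other members (grey), 1 point a gene, which for genes with several promoters is the one with most CpG dinucleotides. The germline promoters lie between 35.3 and 51.0% with at most 4 CpG dinucleotides.

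Of the 57 genes, 36 reached 20 CPM on at least 20 UMIs in at least 1 named class and library. The 20 germline genes were all among them. The other 16 had their highest level in somatic classes. Counted without regard to the peak, 22 members reached the limit in a somatic class and 23 in a germ cell class. The 22 include germline genes in somatic cells of the late libraries, which are given below beside the late germ cells. The 3 germ cell entries outside the germline set were Adam10, Adam15 and Adam17.

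**Figure D2:**
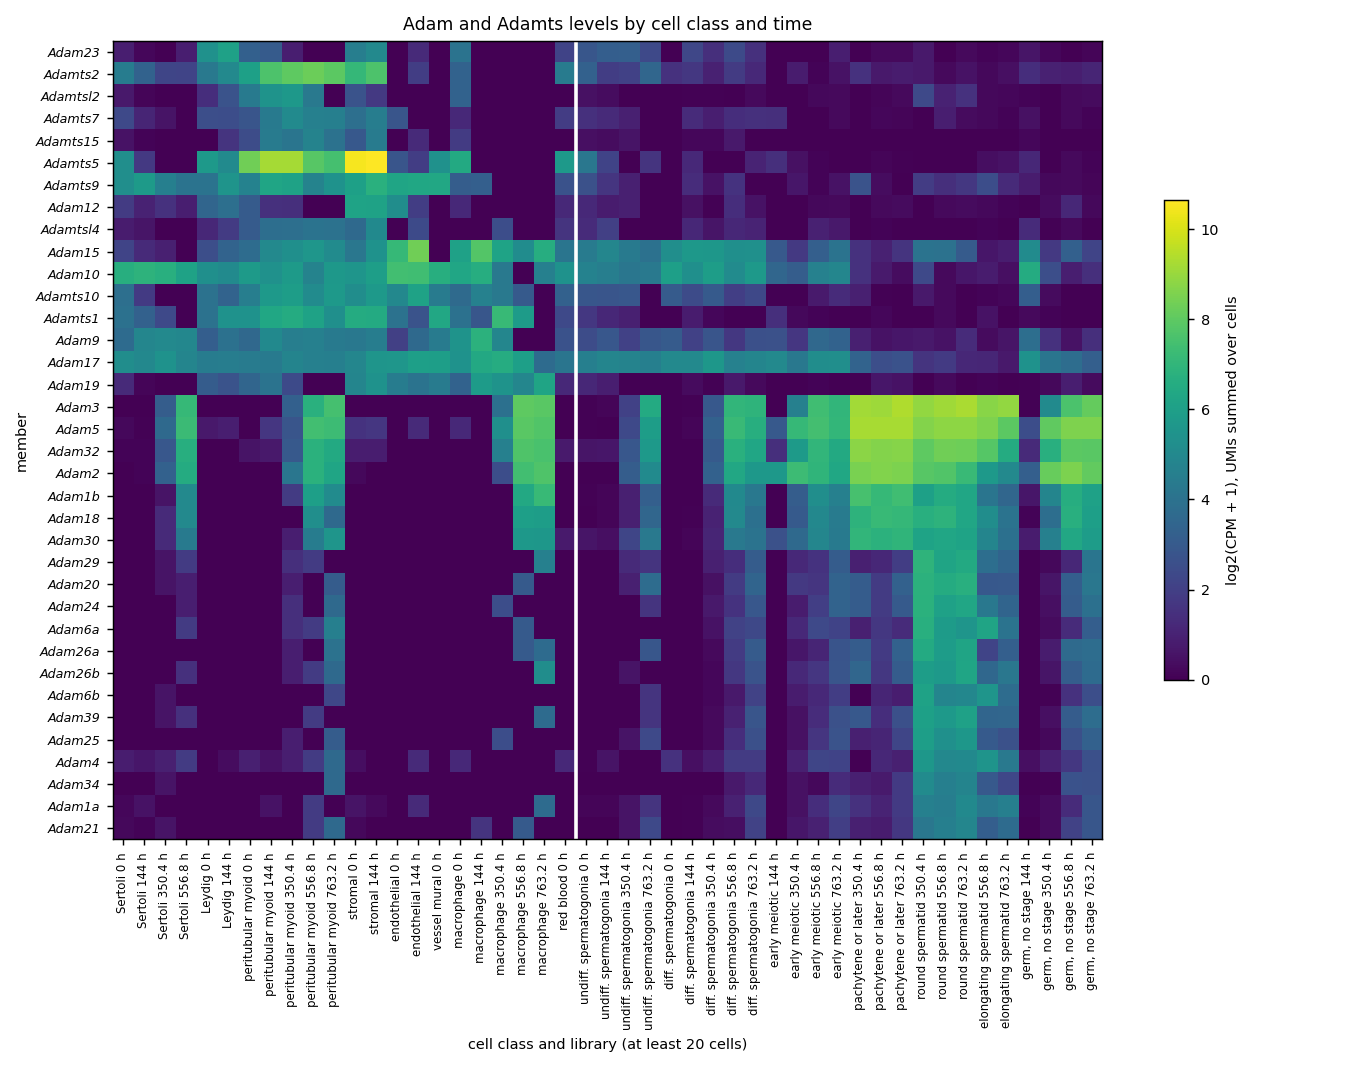
Level, as log2(CPM + 1) of summed UMIs, of the 36 members that reached 20 CPM on at least 20 UMIs (rows). Columns are cell classes and libraries with at least 20 cells, somatic classes left of the white line and germ cells right of it. Germline Adam genes fill the late germ cell columns, Adamts5 and Adamts2 stand out in stromal and peritubular myoid columns, and Adam10, Adam15 and Adam17 run across most somatic columns and the early germ cell ones.

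Germline transcripts were rare at first. The 20 genes summed to 116 UMIs at 0 h and 519 UMIs at 144 h over all kept cells, which is 1.57 and 5.28 CPM, and to 473, 1938 and 1896 CPM at 350.4, 556.8 and 763.2 h. At 144 h the 28 early-meiotic-like cells held 50.2 CPM of Adam2, 6.92 CPM of Adam5, 1.73 CPM of Adam32 and 0 UMIs of Adam3, while Sertoli-like cells of that library held 1.26 CPM of all 20 genes together. Most Adam2 UMIs of that library lay elsewhere: of 218 over all kept cells, 186 were in germ cells without a stage (8.22 CPM). Among these, cluster 2 (1541 cells, led by Stra8 and Prss50) held 2 UMIs of Adam2, and the other 13 cells belonged to cluster 15. Cluster 2 had its best score for early meiotic cells and took that name at resolution 1 and with a mitochondrial limit of 50%, so the Adam2 level of the early-meiotic-like class at 144 h depends on the naming.

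At 350.4 h early-meiotic-like cells were set against differentiating-spermatogonia-like cells, and 9 members were at least 2-fold higher and 9 at least 2-fold lower of 26 with enough UMIs. The background shares were 24.1% higher and 35.5% lower. Adam2 stood at 156 CPM in early-meiotic-like cells and 8.90 CPM in differentiating cells, Adam5 at 140 and 8.90 CPM, and Adam32 at 54.7 and 6.99 CPM. Adam3 stood at 23.5 CPM in early-meiotic-like cells and 6.68 CPM in differentiating cells, a ratio of 3.52 (2.78 to 4.43).

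Cluster by cluster the genes reached high levels at different points. Cluster 43 (286 differentiating-like cells, led by Rhox13 and Esx1) held 11.3 CPM of Adam2. Cluster 55 (92 early-meiotic-like cells, led by Sycp1, Sycp3 and Meiob, parts of the synaptonemal complex and a recombination factor) held 87.2 CPM of Adam2 but 13.3 CPM of Adam5, 7.64 CPM of Adam32 and 7.24 CPM of Adam3. Cluster 14 (740 early-meiotic-like cells, with Psma8 and Hormad1) held 217 CPM of Adam2 and 252 CPM of Adam5, with 95.9 CPM of Adam32 and 37.9 CPM of Adam3. Cluster 15 (421 germ cells without a stage, with Piwil1) held 294 CPM of Adam2 and 273 CPM of Adam5, while Adam3 stood at 34.0, Adam1b at 27.5, Adam30 at 23.8 and Adam18 at 12.96 CPM. In the 42 pachytene-or-later-like cells of this library Adam3 reached 574 CPM and Adam2 356 CPM. Adam18, Adam1b and Adam30 reached 117, 183 and 126 CPM there. Few of these 42 cells carried most of the UMIs. Of the class UMIs, 43.8% came from 13 cells of cluster 45, 31.7% from 3 cells of cluster 46 and 18.1% from 3 cells of cluster 52. Adam2 was thus high in cluster 55, Adam5 and Adam32 from cluster 14 on, and Adam3, Adam18, Adam1b and Adam30 in the pachytene-or-later cells. The order of the clusters in development comes from their leading genes and was not tested. Cluster 14 had a median of 2579.5 UMIs per cell in this library, against 22052 in cluster 55 and 71562 in cluster 15. It shared Hormad1 with the leading genes of cluster 55 and Psma8 with those of cluster 15. The part of depth and free RNA in its levels was not tested. Sertoli-like cells of this library held 41.6 CPM of the 20 genes together.

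**Figure D3:**
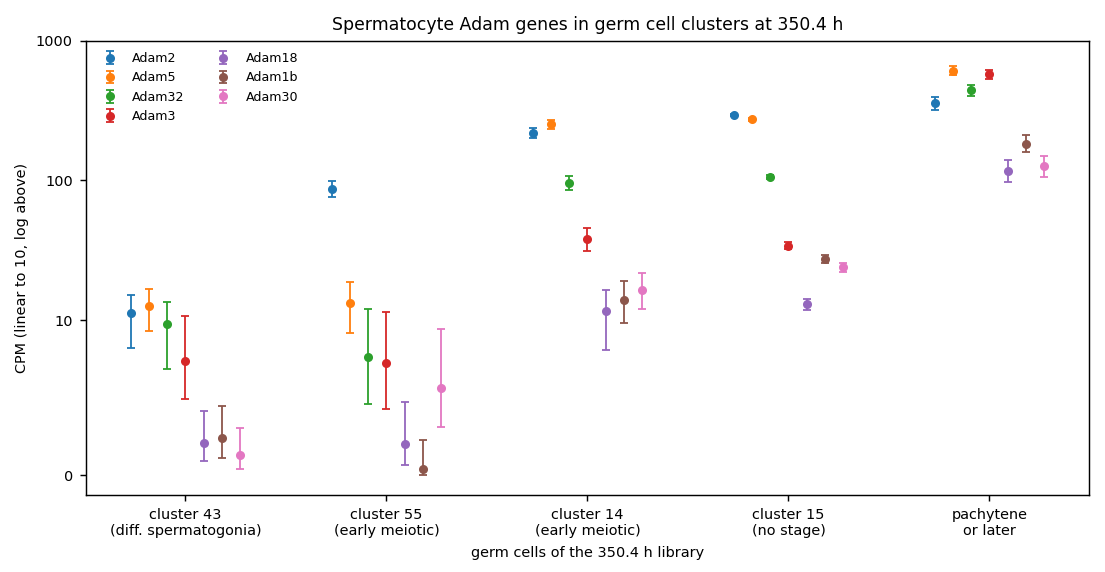
CPM with exact 95% intervals of 7 spermatocyte Adam genes in 4 germ cell clusters and the pachytene-or-later class of the 350.4 h library, on an axis that is linear to 10 and logarithmic above. Adam2 reaches 87.2 CPM in cluster 55 where Adam5 is at 13.3 CPM, and Adam3 reaches 574 CPM in the pachytene-or-later cells.

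In pachytene-or-later-like spermatocytes at 556.8 h, against early-meiotic-like cells of the same library, 12 members were higher and 6 lower of 34, with background shares of 22.3 and 37.1%. All 7 spermatocyte genes were among the 12, which follows in part from their being grouped by this peak. Adam5 had 599 CPM in pachytene-or-later cells and 173 CPM in early-meiotic-like cells, a ratio of 3.47 (3.31 to 3.63), and Adam18 had 144 and 30.6 CPM, a ratio of 4.70 (4.22 to 5.25). The 6 lower members were Adam4, Adamts4 and 4 widely expressed genes. Of these, Adam10 had 0.700 CPM in pachytene-or-later cells and 24.5 CPM in early-meiotic-like cells, and Adam17, Adam9 and Adam15 had 4.93, 0.42 and 0.98 CPM in pachytene-or-later cells against 35.9, 11.0 and 8.39 CPM.

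Germline transcripts were also counted outside the late germ cells. The 20 genes summed to 710 CPM in early-meiotic-like cells at 556.8 h, 568 CPM in differentiating-spermatogonia-like cells and 580 CPM in Sertoli-like cells of that library, against 2356 CPM in pachytene-or-later cells. Within the sum of Adam2, Adam3, Adam5 and Adam32, Sertoli-like cells held 19.2, 28.5, 31.4 and 20.8%, and the whole library held 19.0, 28.9, 31.3 and 20.9%. Early-meiotic-like cells held 20.98, 27.9, 29.4 and 21.8%. Protamine and transition protein genes, made in elongating spermatids, summed to 3127 CPM in the same Sertoli-like cells. The 20 genes summed to 640 CPM in peritubular-myoid-like cells and 1103 CPM in macrophage-like cells at 556.8 h. The part of free RNA in these levels was not tested, and none of them is given as expression of that class.

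In round-spermatid-like cells at 763.2 h, against pachytene-or-later cells, 21 members were higher and 6 lower of 36, with background shares of 31.3 and 32%. The members had a median log2 ratio of 2.14, against -0.32 over all features tested. All 13 spermatid genes were among the 21, at least 8.09-fold higher. They were grouped by this peak, so the count and the median follow in part from the grouping. Adam20 had 104 CPM in round spermatids and 8.87 CPM in pachytene-or-later cells (11.7-fold, 10.2 to 13.4), Adam29 had 88.3 and 2.84 CPM (31.1-fold, 24.6 to 39.8), and Adam6b had 29.6 and 0.82 CPM (36.2-fold, 23.6 to 58.8). At 556.8 h the same pair of classes gave 16 higher and 5 lower of 34, with background shares of 30.6 and 25.2%. At 350.4 h 140 round-spermatid-like cells held 915 CPM of the 13 genes together, and round spermatids held 618 CPM at 556.8 h and 726 CPM at 763.2 h. Of the UMIs of those 140 cells, 39.5% came from 8 cells of cluster 40 and 31.2% from 5 cells of cluster 38. Of 34 members, 4 were higher and 3 lower at 763.2 than at 556.8 h within round spermatids (background 3.15 and 11.4%), and none of the 20 germline genes was among them.

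The spermatocyte genes were kept in part. Adam3 had 621 CPM in round spermatids and 668 CPM in pachytene-or-later cells at 763.2 h, a ratio of 0.93 (0.91 to 0.95), and Adam5 and Adam32 each had a ratio of 0.75. Adam2 and Adam1b were the germline genes past 2-fold lower at 763.2 h. Adam2 had 148 CPM in round spermatids and 366 CPM in pachytene-or-later cells, and Adam1b had 76.5 and 166 CPM. At 556.8 h both were within 2-fold, Adam2 at 216 and 398 CPM and Adam1b at 91.9 and 141 CPM.

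**Figure D4:**
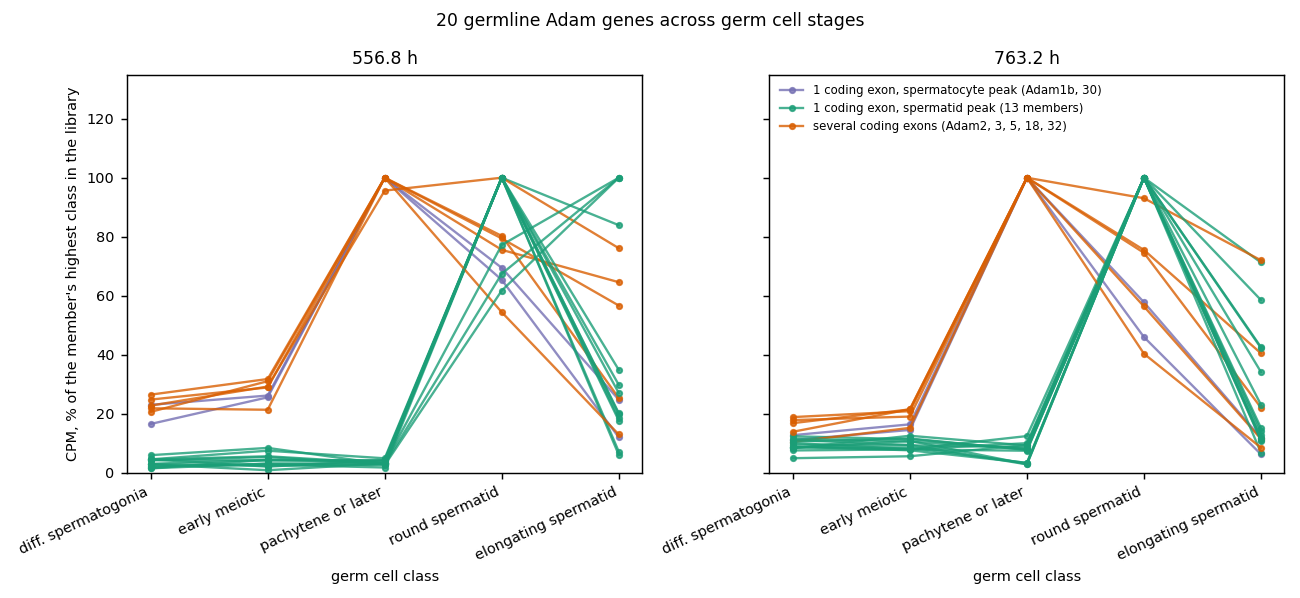
Level of 20 germline Adam genes in 5 germ cell classes at 556.8 h (left) and 763.2 h (right), each as a percentage of the gene's highest class in that library. Genes with several coding exons and Adam1b and Adam30 reach high levels in pachytene-or-later cells, and the 13 spermatid genes in round spermatids; at 556.8 h Adam4, Adam6a and Adam6b were highest in elongating spermatids.

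Round spermatids were not uniform. At 763.2 h Adam20, Adam21, Adam24, Adam25, Adam26a, Adam29 and Adam39 were highest in cluster 6 (929 cells, led by Pdilt, Acrv1 and Spaca1), with 160 CPM of Adam20 and 155 CPM of Adam24. Adam4, Adam6a, Adam6b and Adam34 were highest in cluster 31 (261 cells, led by Gm8251 and Hdac11), with 109, 167, 116 and 83.7 CPM. Adam4, Adam6a and Adam6b stood at 9.63, 15.1 and 8.65 CPM in cluster 38 (327 cells, led by Spag6), where Adam20 stood at 119 CPM. Adam3 and Adam5 were highest in cluster 39 (195 cells named elongating, led by Calr3 and Prss37), with 971 and 942 CPM. The median UMIs per cell at 763.2 h were 2752 in cluster 6, 2990 in cluster 31, 2107 in cluster 39 and 33314 in cluster 38. The part of depth and free RNA in these levels, and the order of these clusters in development, were not tested.

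Pachytene-or-later cells of 763.2 h held more of the spermatid set than those of 556.8 h. There 11 members were higher and 1 lower of 33, with background shares of 8.79 and 5.34%, and 10 of the 11 were spermatid genes. Adam26a had 8.91 CPM at 763.2 h and 2.46 CPM at 556.8 h, a ratio of 3.63 (2.96 to 4.46). The makeup of the class moved with this. Cluster 45, led by Ccna1, Dydc1 and Zpbp2, gave 28.1% of its UMIs at 763.2 h and 5.74% at 556.8 h, and within that cluster the 13 genes summed to 142 and 138 CPM. In cluster 46, led by Pabpc6, the 13 summed to 10.3 CPM at 763.2 h and 1.96 CPM at 556.8 h. The round spermatid markers summed to 325 CPM in the class at 763.2 h and 130 CPM at 556.8 h, and their part in the result was not tested.

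In elongating-spermatid-like cells at 763.2 h, against round spermatids, 1 member was higher and 24 lower of 35, beside background shares of 8.2 and 61.3%. At 556.8 h the counts were 2 and 15 of 27 (background 12.1 and 44.9%). Most features were thus lower at 763.2 h, and the lower counts of the members are not read as particular to them. Protamine and transition protein genes summed to 236638 CPM in the elongating cells at 763.2 h, and their part in the lower levels was not tested. Adam3 was within 2-fold, at 481 CPM in elongating and 621 CPM in round spermatids, as was Adam1a at 22.8 and 31.95 CPM. Adam20 had 6.95 CPM in elongating and 104 CPM in round spermatids, and Adam2 had 30.9 and 148 CPM. The member that was higher was Adamtsl5, with 17.6 CPM in elongating and 1.04 CPM in round spermatids (16.9-fold, 11.9 to 24.7). Within elongating spermatids 1 member was higher and 9 lower of 28 at 763.2 than at 556.8 h (background 1.47 and 27.6%). Among the lower was Adam6a with 15.4 CPM at 763.2 h and 73.6 CPM at 556.8 h. Cluster 28 gave 8.64% of the class UMIs at 763.2 h and 78.9% at 556.8 h, and cluster 41 gave 55.3 and 0.274%. Time and cluster thus cannot be told apart.

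Genes that act on the sperm Adam proteins were read beside them, from a list of 15 that includes chaperones, a converting enzyme and surface partners. Clgn, a chaperone of the endoplasmic reticulum needed for Adam3 on mouse sperm, stood at 402 CPM in early-meiotic-like cells and 76.4 CPM in germ cells without a stage at 144 h, and in early-meiotic-like cells at 571 CPM at 350.4 h, against 53.0 CPM in differentiating cells at 350.4 h. Of the list, 7 genes were higher and 1 lower of 13 in early-meiotic over differentiating cells at 350.4 h (background 24.1 and 35.5%). Tex101 was among the 7 with 2506 and 513 CPM. In pachytene-or-later over early-meiotic-like cells at 556.8 h 4 were higher and 5 lower of 15 (background 22.3 and 37.1%). Cmtm2a stood at 1359 and 303 CPM and Cmtm2b at 1936 and 451 CPM. In round spermatids over pachytene-or-later cells at 763.2 h 5 were higher and 5 lower of 15 (background 31.3 and 32%). The 5 higher were Calr3, Pdilt, Ace, Prss37 and Pmis2, and Pdilt, a testis chaperone for Adam3, had 320 CPM in round spermatids and 17.3 CPM in pachytene-or-later cells.

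Among somatic members the sheddases were broad. Adam10 had 117 CPM in Sertoli-like cells at 144 h and 102 CPM at 0 h, with 103 and 68.8 CPM at 350.4 and 556.8 h. In endothelial-like cells it had 164 CPM at 144 h and 170 CPM at 0 h, while red-blood-like cells of 0 h, which should make little of it, held 41.8 CPM. Adam10 stood at 93.1 CPM in germ cells without a stage at 144 h. It was at 0.270 CPM in pachytene-or-later cells and 0.58 CPM in round spermatids at 763.2 h. Adam17 had 29.8 CPM in Sertoli-like cells at 144 h and 36.1 CPM at 0 h, and 84.3 and 42.2 CPM in macrophage-like cells. Of the list of partners of both proteases, 2 were higher and 5 lower of 7 in early-meiotic over differentiating cells at 350.4 h (background 24.1 and 35.5%). Of their shed substrates 0 were higher and 9 lower of 10, with Notch1, Notch2 and App among the lower. In the same comparison Adam10 had 7.70 CPM in early-meiotic-like cells and 59.2 CPM in differentiating cells.

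In Sertoli-like cells, 2 members were higher and 13 lower of 24 at 144 than at 0 h, with background shares of 11.1 and 21.4%. The median log2 ratio of the 24 was -1.28, against -0.11 over all features tested. Adam9, which can shed growth factor precursors, had 28.2 CPM at 144 h and 12.01 CPM at 0 h (2.35-fold, 2.09 to 2.65), with 31.0 CPM at 350.4 h and 29.6 CPM at 556.8 h. With a mitochondrial limit of 10% the ratio was 1.96. The other was Adam8 with 2.56 and 1.09 CPM. Adamts9 had 54.1 CPM at 144 h and 37.7 CPM at 0 h, within 2-fold, and 23.1 CPM at 350.4 h. Adamts5 had 2.38 CPM at 144 h and 37.2 CPM at 0 h (15.6-fold lower), Adamts10 had 2.49 and 13.7 CPM, and Adamts2 had 9.09 and 21.2 CPM. Red-blood-like cells of 0 h held 53.4 CPM of Adamts5, 8.91 CPM of Adamts10 and 20.6 CPM of Adamts2. These cells should lack Adamts5 and Adamts2. The 0 h levels of Adamts5, Adamts10 and Adamts2 in Sertoli-like cells were not above the intervals of red-blood-like cells. Those intervals were 42.2 to 66.7, 4.74 to 15.2 and 13.9 to 29.3 CPM. The 7 stromal markers summed to 19.2 CPM in Sertoli-like cells at 144 h and 291 CPM at 0 h, and their part in the lower counts was not tested. Without Sertoli-like cluster 3, whose next best score is for stromal cells, Adamts5 stood at 1.70 CPM at 144 h and 4.30 CPM at 0 h, a 2.53-fold difference, and the counts were 5 higher and 6 lower. With a mitochondrial limit of 10% they were 5 and 3. Against 144 h, 3 members were higher and 4 lower of 16 at 350.4 h in Sertoli-like cells, beside background shares of 9.27 and 8.75%. Of the 3, Adam2 and Adam5 are germline genes, and the third was Adam8.

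Stromal-like cells, the interstitial cells that lay down matrix, were where Adamts5 was highest. It had 1592 CPM (1557 to 1627) at 144 h and 1455 CPM (1426 to 1486) at 0 h. Adamts2 had 204 and 133 CPM, Adamts9 had 107 and 64.2 CPM, and Adamts1 had 90.6 and 92.5 CPM. Adamts1 and Adamts5 are neighbours on chromosome 16, 53.1 kb apart. Adam12, a protease of mesenchymal cells, had 68.4 CPM at 144 h and 70.8 CPM at 0 h. Of 25 members, 5 were higher and 4 lower at 144 than at 0 h, with background shares of 7.91 and 3.74%. The 5 higher were Adam15, Adam33, Adamts14, Adamts15 and Adamtsl4. Adam33 rested on 20 UMIs at 144 h and 10 UMIs at 0 h and was 1.14-fold higher when every cell weighed the same. Adamts15 had 20.2 CPM at 144 h and 6.55 CPM at 0 h (3.09-fold, 2.13 to 4.56), and Adamtsl4, which binds fibrillin, had 31.8 and 11.5 CPM. Different clusters held most of the class at the 2 times, cluster 36 at 144 h and cluster 22 at 0 h. After a subtraction of free RNA scaled to haemoglobin genes 17 were higher, and Adam15 was then at 0 CPM at 144 h and 17.8 CPM at 0 h. Haemoglobin genes summed to 516 CPM in stromal-like cells at 144 h and 43.6 CPM at 0 h.

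Peritubular-myoid-like cells, which wrap and squeeze the tubules, also held Adamts5 and Adamts2. Over the 5 times Adamts5 had 318, 595, 583, 234 and 179 CPM, and Adamts2, the main procollagen N-proteinase, had 64.6, 200, 257, 300 and 248 CPM. Adamts5 was 234 CPM (188 to 288) at 556.8 h and 583 CPM (540 to 629) at 350.4 h, while the intervals of Adamts2 overlapped, 248 to 361 CPM and 228 to 288 CPM. The cells came from cluster 59 for 95.5% at 556.8 h and from cluster 26 for 91.6% at 350.4 h, so time and cluster cannot be told apart. Adamts15 had 4.55, 20.8, 16.3, 26.3 and 15.3 CPM. Adamtsl2, which binds fibrillin and latent TGF-beta binding protein, had 19.6, 42.9, 50.7, 18.4 and 0 CPM, the last resting on 0 UMIs in 46 cells.

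Against 0 h, 12 members were higher and 2 lower of 24 at 144 h in these cells, with background shares of 11.8 and 16.7%. At 0 h 97.2% of the class is cluster 29, with a median of 2683 UMIs per cell. The myoid markers summed to 25233 CPM at 144 h and 7167 CPM at 0 h, and the Sertoli markers to 522 and 1686 CPM, and their part in the counts was not tested. A deeper cluster with 240 cells at 0 h, whose best score was also for myoid cells, was left unnamed because its 10 leading genes held the stromal marker Tcf21 and no myoid marker. It held 693 CPM of Adamts5 and 131 CPM of Adamts2. With it counted in, 4 members were higher, namely Adam15, Adamts7, Adamts9 and Adamts15, and Adamts15 was then 2.60-fold higher. The count was 3 with a mitochondrial limit of 50% and 2 with no doublets removed. Between later neighbouring times 1 was higher and 3 lower of 23 at 350.4 over 144 h (background 6.14 and 5.75%), 5 and 4 of 20 at 556.8 over 350.4 h (background 14.6 and 9.45%), and 2 and 0 of 14 at 763.2 over 556.8 h (background 7.8 and 4.47%). The 1 higher at 350.4 h was Adam2, and the 5 higher at 556.8 h were Adam1b, Adam2, Adam3, Adam5 and Adam32, all germline genes. At 763.2 h they were Adam30, also a germline gene, and Adamts8. Each of these rested on 12 UMIs at 763.2 h and 8 at 556.8 h, with a ratio of 2.17 (0.82 to 6.13). The part of free RNA in these counts was not tested.

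**Figure D5:**
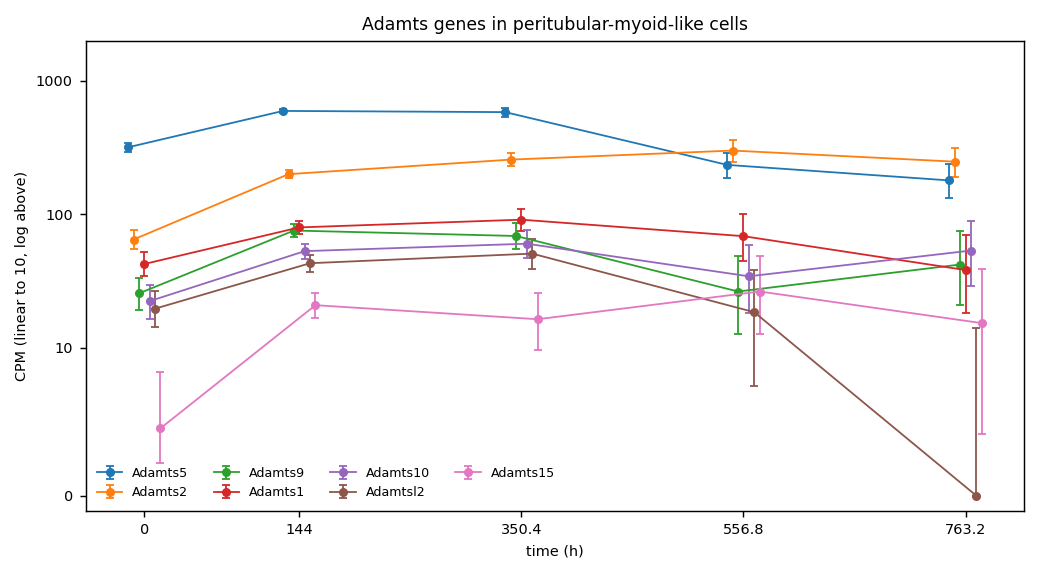
CPM with exact 95% intervals of 7 Adamts and Adamtsl genes in peritubular-myoid-like cells at the 5 times, on an axis that is linear to 10 and logarithmic above. Adamts5 stands at 595 CPM at 144 h and 179 CPM at 763.2 h, while Adamts2 stands between 200 and 300 CPM from 144 h on.

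Macrophage-like and endothelial-like cells carried Adam15, a protease of vessel and immune cells. In endothelial-like cells it had 323 CPM (283 to 368) at 144 h and 137 CPM (101 to 183) at 0 h. In macrophage-like cells it had 220 CPM at 144 h and 67.2 CPM at 0 h (3.27-fold, 2.32 to 4.66). Of 7 members with enough UMIs in macrophage-like cells, 4 were higher and 1 lower at 144 than at 0 h, with background shares of 15.7 and 14.4%. Adam19 had 55.5 and 9.23 CPM and Adam9 had 113 and 43.5 CPM. Adamts10, also counted as higher, rested on 12 and 9 UMIs, with a ratio of 2.08 (0.80 to 5.59). The lower one was Adamts5, with 0 UMIs at 144 h and 87.0 CPM at 0 h, while stromal markers in these cells summed to 555 and 842 CPM and macrophage markers to 21614 and 8025 CPM. The class had 39 cells at 144 h and 271 at 0 h. Adamts1 had its highest value of any class in macrophage-like cells at 350.4 h, 142 CPM (96.0 to 203) on 30 UMIs. Adam23, which lacks protease activity and binds Lgi proteins in nerve tissue, was highest in Leydig-like cells, the steroid-making cells, with 66.8 CPM at 144 h and 40.1 CPM at 0 h. There 3 members were higher and 0 lower of 15 (background 4.79 and 10.3%), namely Adamts9, Adamts1 and Adamtsl2, and Adamts9 had 44.0 and 15.5 CPM. In undifferentiated-spermatogonia-like cells 2 were higher and 3 lower of 22 at 144 over 0 h (background 4.52 and 8.29%), the lower ones being Adamts2, Adamts5 and Adamts9. Adamts2 had 2.77 CPM at 144 h and 8.79 CPM at 0 h and Adamts5 had 3.42 and 17.5 CPM, both below the levels in red-blood-like cells of 0 h given above, and the part of free RNA was not tested.

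Inhibitors and matrix substrates were read from fixed lists in the same cells. Timp2 and Timp3 are tissue inhibitors, and Timp3 acts on several ADAM and ADAMTS proteases. They were the 2 higher of 4 inhibitors in Sertoli-like cells at 144 over 0 h (background 11.1%). Timp2 had 402 CPM at 144 h and 53.9 CPM at 0 h, and Timp3 had 272 and 95.5 CPM, while red-blood-like cells of 0 h held 39.0 and 29.5 CPM. The same 2 genes were the higher ones of 4 in peritubular-myoid-like cells (background 11.8%). Timp3 had 462 and 152 CPM there and stood at 895 CPM at 556.8 h. Of 8 matrix substrates 0 were higher and 8 lower in Sertoli-like cells at 144 over 0 h (background 11.1 and 21.4%). Among them Col1a1 had 6.02 and 143 CPM, and red-blood-like cells of 0 h held 606 CPM. Vcan, the core protein of versican, was the 1 lower of 7 in stromal-like cells (background 3.74%). It had 14.97 CPM at 144 h and 82.8 CPM at 0 h.

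The other 21 members did not reach 20 CPM on at least 20 UMIs in any named class. On fewer UMIs some passed 20 CPM, such as Adamts8 with 45.8 CPM on 12 UMIs in peritubular-myoid-like cells at 763.2 h. Unnamed cells of 0 h held 27.9 CPM of Adamts8 on 107 UMIs and 24.0 CPM of Adamts4 on 92 UMIs. Adam7, a gene of the epididymis, had 3 UMIs in all kept cells, Adam28 had 18, Adamts18 had 26, Adamts13 had 37 and Adamtsl3 had 74. On at least 20 UMIs in a named class, Adamtsl5 came nearest the limit with 17.6 CPM in elongating spermatids. It was followed by Adamts12 with 15.8 CPM in stromal-like cells at 0 h and Adamts4 with 14.6 CPM in peritubular-myoid-like cells at 144 h. Adamts19 came next with 13.6 CPM in stromal-like cells at 0 h. Adamts20 was at 3.03 CPM in round spermatids and 0.04 CPM in pachytene-or-later cells at 763.2 h. Adam22, a noncatalytic protein of nerve tissue, and Adam11 had their highest levels on at least 20 UMIs in differentiating-spermatogonia-like cells, 7.92 CPM at 144 h and 5.88 CPM at 350.4 h.

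Over the whole suspensions, 5 members were higher and 6 lower of 40 at 144 over 0 h (background 14.5 and 10.4%). At 350.4 over 144 h 20 were higher and 22 lower of 53 (background 22.8 and 27.6%), at 556.8 over 350.4 h 23 and 16 of 50 (background 25.4 and 38.8%), and at 763.2 over 556.8 h 15 and 3 of 51 (background 13.3 and 5.24%). The makeup of the suspensions differed between the times, since round-spermatid-like cells were 23.6% of kept cells at 763.2 h and 5.39% at 556.8 h, and Sertoli-like cells were 20.4% at 144 h and 41.7% at 0 h. A change in cell makeup and a change per cell cannot be told apart in these sums.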

How the data were processed

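The authors deposited 1 matrix of UMI counts for each library, not normalized, with 27998 features, and per the file headers Cell Ranger 3.0.2 made them. The submitters' processing notes list the build mm10 and Seurat 4.3.0.1 without saying what they did. For the chemistry, strand handling and alignment settings, the sources used here give nothing. Groups came from the sample titles.

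Barcodes were kept with at least 1000 UMIs, 500 genes, under 20% mitochondrial UMIs and a Scrublet score up to 0.25 (expected rate 0.08). Automatic thresholds called 0, 321, 2, 1 and 0 doublets and the fixed score removed 153, 317, 169, 334 and 437. Counts scaled to 10000 per cell were clustered with scanpy 1.11.5 and python-igraph 0.11.9 on 3000 variable genes without the 57 members, the other list genes and mitochondrial genes (40 components, 15 neighbours, Leiden resolution 2), giving 64 clusters. Clusters were named from markers of 15 classes (mean score at least 0.75, a lead of 0.25, at least 3 markers of 20 CPM). Unnamed clusters held 4.16, 17.3, 30.8, 0.0595 and 0.0544% of kept cells.

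UMIs were summed per class and library with at least 20 cells. CPM have exact Poisson and ratios exact conditional binomial intervals (scipy 1.17.1), with 3 counts in place of 0 for calls. A count of 3 in a whole library is 0.0272 to 0.0407 CPM. The ratio and its interval were tested on simulated data. Members were named where they reached 20 CPM on 20 UMIs, and other genes were named from fixed lists and markers. Examples within lists were chosen after their values were seen. The members, lists, markers and naming thresholds were chosen with earlier results of these data known. Other settings tried were cell limits, resolution, weights, library size, a minimum of 50 UMIs and free RNA subtraction.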

Additional observations from a re-analysis of the deposited data

Results flagged for a closer look

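Some members moved in opposite directions between 144 and 0 h in different somatic classes, at least 2-fold higher at 144 h in one class and at least 2-fold lower in the other. These differences were not tested, since each time had 1 library, and each value is the ratio of the 144 over 0 h ratios, that of the class named first over that of the class named second. Adamtsl2 stood at 13.1 for peritubular-myoid-like over Sertoli-like cells, 5.05 for peritubular-myoid-like over stromal-like cells, 20.4 for Leydig-like over Sertoli-like cells and 7.89 for Leydig-like over stromal-like cells. These rest on 3 UMIs of Adamtsl2 at 144 h and 23 at 0 h in Sertoli-like cells, and on 19 and 5 in Leydig-like cells. Adam15 stood at 6.11 for peritubular-myoid-like, 5.92 for stromal-like and 8.29 for macrophage-like over Sertoli-like cells. Adamts10 stood at 13 for peritubular-myoid-like and 11.4 for macrophage-like over Sertoli-like cells. In macrophage-like cells it rested on 12 UMIs at 144 h and 9 at 0 h, and the interval of that ratio was 0.80 to 5.59. Adam19 stood at 76.5 for macrophage-like over Sertoli-like cells, with 3 UMIs in Sertoli-like cells at 144 h. Adamts7 stood at 11.5 and Adamts2 at 7.2 for peritubular-myoid-like over Sertoli-like cells. Adamts4 stood at 4.18 for peritubular-myoid-like over stromal-like cells. Several of these opposite directions depend on the setting. With unnamed clusters counted with their best class, the 144 over 0 h ratio in peritubular-myoid-like cells was 1.10 for Adamtsl2, 1.74 for Adamts10, 1.91 for Adamts2 and 0.78 for Adamts4, none of them 2-fold higher. With a mitochondrial limit of 50% it was 1.80 for Adamts7. In stromal-like cells Adamts4 and Adamtsl2 came within 2-fold with that limit, at 0.54 and 0.56. With a mitochondrial limit of 10% the ratio in Sertoli-like cells was 2.35 for Adamtsl2, 1.10 for Adam15 and 1.07 for Adam19. Adamts2 in Sertoli-like cells at 0 h, 21.2 CPM, lay within the interval of red-blood-like cells, 13.9 to 29.3 CPM.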

How the results depend on the processing

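No paired analysis was possible because each time had 1 library. The planned free RNA subtraction scaled to spermatid genes gave no value, since those genes had under 20 UMIs at 0 and 144 h, and at resolution 1 the peritubular-myoid-like class at 0 h gave none. The settings added after seeing the data were the haemoglobin scaling, unnamed clusters counted with their best class, and leaving out Sertoli-like cluster 3. The cause of the following shifts was not tested. For Sertoli-like cells at 144 over 0 h, the count of higher members was 2 and became 5 with at least 3000 UMIs per cell, with a mitochondrial limit of 10%, with one of 50% and without cluster 3, 4 with no doublets removed and with the library size without mitochondrial and the 20 most abundant genes, and 1 with equal weight of cells. The count of lower members was 13 and became 3 with the 10% limit, 7 with a minimum of 50 UMIs and 6 without cluster 3. For peritubular-myoid-like cells 12 higher became 3 with the 50% limit, 2 with no doublets removed and 4 with unnamed clusters, and 2 lower became 0 with at least 3000 UMIs per cell and with the minimum of 50 UMIs. For stromal-like cells 4 lower became 2 with the 50% limit, with equal weight and with the minimum of 50 UMIs, and 5 higher became 17 with the haemoglobin scaling. For round spermatids over pachytene-or-later cells at 763.2 h 6 lower became 3 with equal weight. For whole libraries, 5 higher and 6 lower at 144 over 0 h became 10 and 3 with the 10% limit, and 3 lower at 763.2 over 556.8 h became 5 with the 50% limit. The counts in pachytene-or-later over early-meiotic-like cells, in elongating over round spermatids, at 350.4 over 144 h and at 556.8 over 350.4 h moved by under 1.5 times in each setting run, as did the higher count in round spermatids. Over the members called and the settings, 100 ratios stayed past 2-fold, 32 came within it and 8 turned in peritubular-myoid-like cells. In Sertoli-like cells 145 stayed, 12 came within and 8 turned, and in stromal-like cells 86, 10 and 3. In round spermatids over pachytene-or-later cells at 763.2 h these were 260, 9 and 1, in elongating over round spermatids 243, 7 and 0, and in pachytene-or-later over early-meiotic-like cells 178, 2 and 0.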
